A study of Mus musculus with 16 samples.

Results

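The comparison of a late with an early block of the mevalonate pathway was made on all 16 of the 16 arrays of the series: the treated-over-control ratio of the 8 SQ1 arrays minus that of the 8 pravastatin arrays, matched by replicate number, over 15091 genes. The cells were primary hepatocytes from male C57Bl/J mice, kept in Williams Medium E and treated from 48 h after plating. They received 100 µM SQ1 (squalestatin 1, an inhibitor of squalene synthase), 30 µM pravastatin (a statin, an inhibitor of an early step of the mevalonate pathway) or nothing, for 48 h. Each 2-colour Agilent array set RNA of treated cells against RNA of untreated cells, with the treated RNA in the red dye for replicates 1 to 4 and in the green dye for replicates 5 to 8. Squalestatins act at nanomolar doses, so the labelled unit for SQ1 may be wrong. The doses of the drugs were not matched, so the step that was blocked and the strength of the block cannot be told apart. Primary hepatocytes lose part of their liver-specific transcription in culture, and a plated preparation can hold a few other liver cells, whose markers are given at the end.

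The mevalonate pathway turns acetyl-CoA into mevalonate, the step that statins block, and then into farnesyl pyrophosphate, a branch point. Squalene synthase commits farnesyl pyrophosphate to cholesterol, whereas the other branches supply geranylgeranyl groups, farnesyl groups, dolichol and the side chains of ubiquinone and haem A. A statin lowers the supply of every branch, while a squalene synthase inhibitor lowers sterols and leaves farnesyl pyrophosphate and its upstream products to accumulate. When sterols in the endoplasmic reticulum fall, the transcription factor SREBP-2 is released and raises the genes of cholesterol synthesis and uptake.

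Promoters of 5 genes named below, each with a match to the motif searched, are shown. They are the 250 bases before the RefSeq start (GRCm38.p6), 5′ to 3′ on the strand of the gene. Of the 15091 genes tested, 11982 had an entry in the RefSeq promoter table used here. Capitals mark the motif searched on both strands: the sterol regulatory element TCACNCCAC in Hmgcs1 (chr13:119690101-119690350, plus strand), the direct repeat of AGGNCA after 1 base of any kind in Fabp1 (chr6:71199629-71199878, plus strand), the ER stress element, CCAAT and CCACG 9 bases apart, in Hsp90b1 (chr10:86705445-86705694, minus strand), the amino acid response element TGATGNAA in Slc7a11 (chr3:50443614-50443863, minus strand) and the interferon-stimulated response element, GAAA and GAAA 2 bases apart, in Cxcl10 (chr5:92348890-92349139, minus strand).
Hmgcs1: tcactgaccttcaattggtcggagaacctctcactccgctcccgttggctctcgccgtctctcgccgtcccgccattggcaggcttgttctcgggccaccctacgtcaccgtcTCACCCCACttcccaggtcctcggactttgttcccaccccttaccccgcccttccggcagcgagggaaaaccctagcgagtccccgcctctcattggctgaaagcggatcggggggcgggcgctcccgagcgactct
Fabp1: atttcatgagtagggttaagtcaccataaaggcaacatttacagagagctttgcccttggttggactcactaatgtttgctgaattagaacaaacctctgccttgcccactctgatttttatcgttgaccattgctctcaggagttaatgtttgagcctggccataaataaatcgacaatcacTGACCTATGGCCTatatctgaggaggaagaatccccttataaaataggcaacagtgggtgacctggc
Hsp90b1: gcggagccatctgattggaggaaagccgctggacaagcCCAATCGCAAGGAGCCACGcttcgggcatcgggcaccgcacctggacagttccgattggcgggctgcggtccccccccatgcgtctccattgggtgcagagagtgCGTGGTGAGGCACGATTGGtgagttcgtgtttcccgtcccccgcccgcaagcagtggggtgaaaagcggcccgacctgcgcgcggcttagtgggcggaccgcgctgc
Slc7a11: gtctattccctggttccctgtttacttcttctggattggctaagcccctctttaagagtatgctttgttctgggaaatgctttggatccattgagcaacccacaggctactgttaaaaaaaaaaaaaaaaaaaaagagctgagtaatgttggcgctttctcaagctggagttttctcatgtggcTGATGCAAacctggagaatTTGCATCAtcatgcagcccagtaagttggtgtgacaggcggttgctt
Cxcl10: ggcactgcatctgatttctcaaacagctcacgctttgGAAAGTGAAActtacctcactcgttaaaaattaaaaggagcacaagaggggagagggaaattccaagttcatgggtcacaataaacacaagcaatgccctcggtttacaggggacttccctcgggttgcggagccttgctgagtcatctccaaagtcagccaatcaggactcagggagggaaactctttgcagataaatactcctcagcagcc
The sterol regulatory element was found in 1.04% of all 27025 promoters and in 1 of 15 promoters of the sterol enzymes, that of Hmgcs1. Its usual partner, the CCAAT box (letters CCAAT), stood in 13 of those 15 promoters against 34.5% of all promoters. It was as frequent in the ER chaperone list (16 of 17) and stood in 15 of 19 promoters of the cell cycle list. The direct repeat was in 0.333% of all promoters and in 1 of 29 of the PPARalpha list, that of Fabp1. The ER stress element, which contains a CCAAT box, was in 0.122% of all promoters and in 8 of 17 of the ER chaperone list, with 2 matches in Hsp90b1. The amino acid response element was in 3.53% of all promoters and in 4 of 19 of the stress response list (Atf3, Asns, Chac1 and Nupr1), and Slc7a11 had 2 matches. The interferon-stimulated response element was in 3.04% of all promoters and in 8 of 17 of the interferon list. The antioxidant response element TGACNNNGC was in 10.2% of all promoters and in 3 of 17 of the NRF2 list. These matches describe the letters of the windows and no more.

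Values below are log2 ratios of treated over control on an array with the dye effect of the gene removed, and a difference is SQ1 minus pravastatin over 8 matched pairs, with its standard error from limma. Calls were made at a Benjamini-Hochberg adjusted p below 0.05. Of 15091 genes, 9416 (62.4%) were called, 5119 (33.9%) higher and 4297 (28.5%) lower with SQ1 than with pravastatin. These shares of all genes are the reference for the list counts below. The lists were chosen with earlier results of these data known, so their counts are descriptive only. At 1.5-fold or more, 1168 (7.74%) were higher and 463 (3.07%) lower, and at 4-fold 110 (0.729%) were higher and 8 (0.053%) lower. The ranges of the drugs' arrays did not overlap for 3117 genes (20.7%), and the median difference over all genes was 0.01. Each slide held 4 arrays of 1 drug, so drug and slide cannot be told apart across the drugs. Pravastatin replicates 1, 2, 5 and 6 were scanned on 1 day and all other arrays on another, and 7768 genes were called from those 4 pairs alone and 7348 from replicates 3, 4, 7 and 8, scanned on the same day. The same test on the control channels alone called 2879 genes (19.1%), 2566 of them lower and 313 higher on the SQ1 arrays, and 15 (0.0994%) differed by 1.5-fold or more. Against control, 32.2% of genes were called with SQ1 (15.7% rose, 16.5% fell) and 66.6% with pravastatin (30.8% rose, 35.8% fell). The balance for pravastatin depended on the scaling: 46.3% of its called genes had risen as reported, 61.0% with median centring and 56.8% with Agilent's processed signals. The deposited names give matched arrays of both drugs the same control number, so these 2 comparisons may share control samples, which the labels do not state, and they are given side by side only. The series calls its replicates biological, and nothing ties them to separate mice, so p-values measure the spread between arrays.

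SQ1 raised the transcripts of all 20 enzymes of cholesterol synthesis, pravastatin raised 7 of the 8 early and 8 of the 12 late ones, and all 20 stood higher with SQ1. Fdft1, which encodes squalene synthase, the target of SQ1, ranged from 0.66 to 1.53 on the SQ1 arrays (median 1.05) and from 0.13 to 0.96 on the pravastatin arrays (median 0.46). The ranges overlapped, but all 8 matched differences lay above 0, between 0.25 and 0.93. The difference was 0.58 ± 0.06, or 1.5-fold (adjusted p = 2.51e-06), on the brighter of 2 probes. The other probe gave 0.19. With median centring in place of loess, Fdft1 was no longer called.

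Of the 8 early mevalonate enzymes, from acetyl-CoA to farnesyl pyrophosphate, 8 were higher with SQ1 and 0 lower, against 33.9% of all genes higher. Their median difference was 0.55 (SD 0.18 over 8 pairs), from medians of 1.08 with SQ1 and 0.53 with pravastatin. Hmgcs1, the HMG-CoA synthase whose promoter is shown above, stood furthest apart: 1.09 to 1.91 with SQ1 (median 1.32) and -0.01 to 1.04 with pravastatin (median 0.21). No pravastatin array reached the lowest SQ1 array. The difference was 1.00 ± 0.08, or 2-fold (adjusted p = 2.11e-07). Idi1, which isomerises isopentenyl pyrophosphate, differed by 0.66 ± 0.07 and Mvk, mevalonate kinase, by 0.63 ± 0.04. Fdps, farnesyl pyrophosphate synthase, differed by 0.52 ± 0.06, Mvd, which decarboxylates mevalonate pyrophosphate, by 0.50 ± 0.06, and Pmvk, phosphomevalonate kinase, by 0.43 ± 0.05. Acat2, the cytosolic thiolase, rose with SQ1 (0.43 ± 0.04), while its pravastatin value of 0.02 ± 0.04 was not past the threshold.

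The 12 enzymes from squalene synthase to cholesterol were likewise all called higher with SQ1, with a median difference of 0.66 (SD 0.16) and medians of 1.03 with SQ1 and 0.42 with pravastatin. With SQ1 all 12 rose, up to 1.37 for Lss, which forms lanosterol. With pravastatin 2 fell and 2 missed the threshold, among them Ebp, Sc5d and Dhcr7, which act late in the pathway. Ebp, the sterol isomerase, fell to -0.31 ± 0.05 with pravastatin. Sc5d, the sterol desaturase, at 0.03 ± 0.07, and Dhcr7, the last reductase of one route, at -0.06 ± 0.09, were the members that missed the threshold. On the SQ1 arrays Dhcr7 ranged from 0.55 to 1.28 (median 0.80) and on the pravastatin arrays from -0.38 to 0.40 (median -0.15). The ranges were apart. Its difference was 0.92 ± 0.07, or 1.89-fold (adjusted p = 1.11e-07). Closest together was Cyp51, lanosterol demethylase, at 1.21 ± 0.10 with SQ1 and 0.81 ± 0.10 with pravastatin, a difference of 0.40 ± 0.07. The ranges of the drugs did not overlap for 2 of the 8 early and 6 of the 12 late enzymes, against 20.7% of all genes. The early count was near that share. With median centring 5 of the 8 and 8 of the 12 were called.

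**Figure D1:**
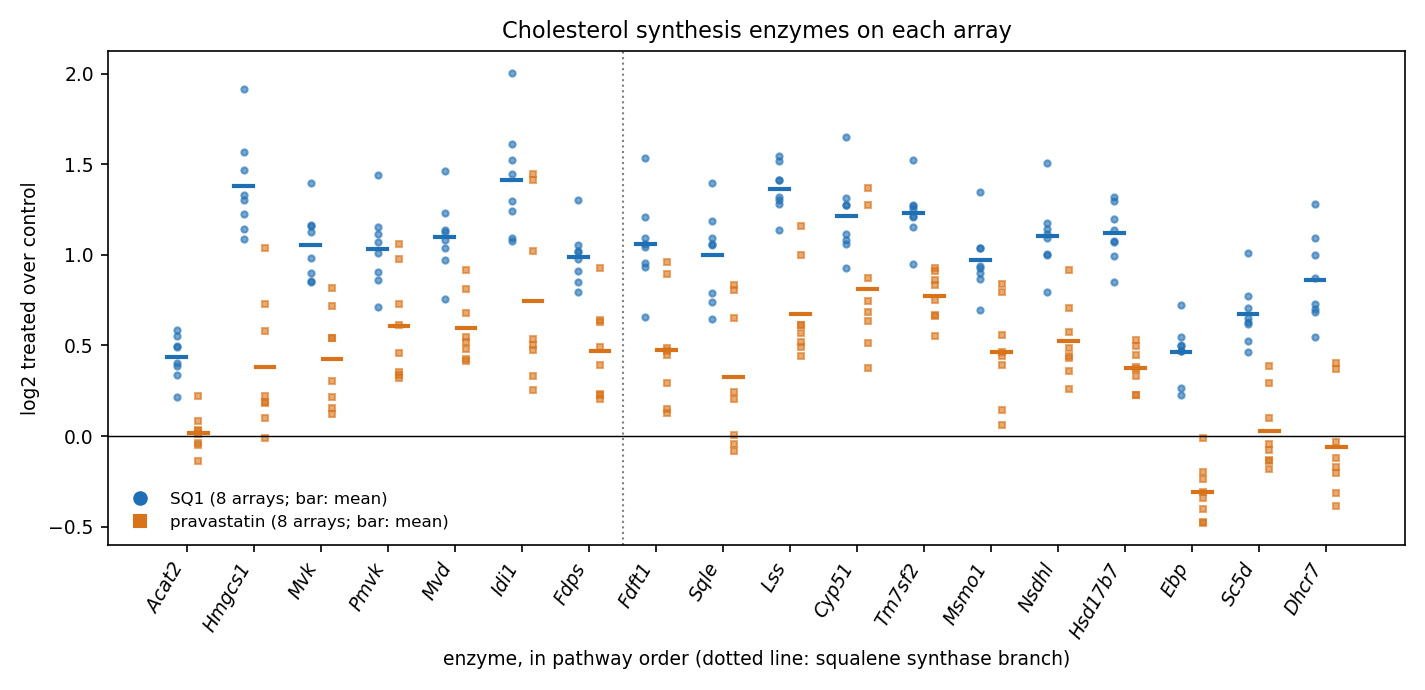
Log2 ratio of treated over control for 18 cholesterol synthesis enzymes in pathway order, with 1 point per array for SQ1 (circles) and pravastatin (squares) and a bar at the mean of 8 arrays. SQ1 means lie above pravastatin means for all 18, and all 8 pravastatin arrays of Ebp lie below 0.

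Genes that sense or move sterols differed less than the enzymes as a group. Of 16 members, 9 were higher with SQ1, 3 lower and 4 not called, against 33.9% of all genes higher and 28.5% lower. With median centring 6 were higher and 0 lower. The median difference was 0.12 (SD 0.07), above 0 in all 8 pairs. Against control 12 rose and 2 fell with SQ1 (median 0.34), and 10 rose and 4 fell with pravastatin (median 0.27). Stard4, a sterol carrier in the cytosol, was higher by 0.69 ± 0.08, and Insig1, which holds SREBP in the endoplasmic reticulum, by 0.66 ± 0.08. Insig2, a related retention protein, fell with pravastatin (-0.61 ± 0.06) and was at 0.02 ± 0.06 with SQ1. Srebf2, the gene of SREBP-2 itself, went the other way from the enzymes. It ranged from 0.29 to 0.58 with SQ1 (median 0.48) and from 0.65 to 0.93 with pravastatin (median 0.69), with no overlap. Its difference was -0.28 ± 0.04 (adjusted p = 0.000161). Mbtps2, a protease that releases SREBP, was also lower with SQ1, by -0.30 ± 0.05. Neither Srebf2 nor Mbtps2 was called with median centring.

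Sterol efflux genes that respond to LXR, the receptor for oxysterols, were mostly higher with SQ1: 10 of 13, with 2 lower, a median difference of 0.50 (SD 0.13), and medians of -0.08 with SQ1 and -0.47 with pravastatin. The last 2 are medians of fitted gene values. On single arrays the list median ran from -0.29 to 0.03 with SQ1 and from -0.75 to -0.53 with pravastatin. The median difference was 0.41 for replicates 1, 2, 5 and 6, 0.73 for the others and 0.67 with Agilent's processed signals. Abcg5, which pairs with Abcg8 in the transporter that sends sterols into bile, ranged from -0.39 to 0.88 with SQ1 (median 0.34) and from -2.63 to -1.25 with pravastatin (median -2.10). The groups were fully apart, and the difference was 2.31 ± 0.05, or 4.95-fold (adjusted p = 5.75e-11). Abcg8 differed by 0.41. Abca1, which loads cholesterol onto apolipoprotein A-I, fell with both drugs, to a median of -0.55 with SQ1 and -1.79 with pravastatin, and differed by 1.21 ± 0.04. Arl4c, a small GTPase (-0.34 ± 0.05), and Nr1h2, the gene of LXRbeta (-0.19 ± 0.04), were the 2 lower members, and neither was called with median centring. Control channels of the SQ1 arrays were themselves lower for Arl4c, by -0.61.

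Genes of the non-sterol branches of the pathway, whose supply was not measured, showed small differences at the transcript level. Among 18 enzymes of prenylation, dolichol, ubiquinone and haem A, 4 were higher with SQ1, 7 lower and 7 not called, all by less than 1.5-fold. Over all genes 33.9% were higher and 28.5% lower. The list median was 0.03, and it was -0.03 with Agilent's processed signals and -0.02 on the treated channels alone. Ggps1, geranylgeranyl pyrophosphate synthase, ranged from -0.05 to 0.14 with SQ1 (median 0.04) and from 0.23 to 0.41 with pravastatin (median 0.31), without overlap. Its difference was -0.27 ± 0.04 (adjusted p = 5.58e-05). Rabggtb, a subunit of the transferase that prenylates Rab proteins, differed by -0.24 ± 0.03, and the shared subunit of farnesyl and geranylgeranyl transferase, Fnta, by 0.18 ± 0.03. Dolk, dolichol kinase, differed by 0.22 ± 0.04. With median centring 0 of the 18 were called.

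Of 23 small GTPases, which need prenyl groups to reach membranes, and their binders, 9 were higher and 10 lower. Over all genes the shares were 33.9% and 28.5%. The median of this list was -0.04, and 0.04 over replicates 1 to 4. Rhob, a GTPase of the endosome, was lower with SQ1 by -0.44 ± 0.04: -0.28 with SQ1 and 0.16 with pravastatin. Rhoq was lower by -0.34 ± 0.05, Rab7, a GTPase of late endosomes, higher by 0.55 ± 0.04, and Rhod higher by 0.40 ± 0.04. Rhoa differed by 0.01 and was not called. Median centring left 2 higher and 1 lower. Among 28 actin genes that respond to SRF and YAP, factors that follow actin assembly, 7 were higher and 12 lower. The shares of all genes were again 33.9% and 28.5%. Ccn1, a matricellular YAP target, ranged from -0.63 to -0.09 with SQ1 (median -0.34) and from 0.21 to 0.78 with pravastatin (median 0.39). All SQ1 arrays were below control and all pravastatin arrays above it. The difference was -0.79 ± 0.06 (adjusted p = 2.28e-07). Ankrd1, a nuclear YAP target, was lower by -0.61 ± 0.09, whereas the smooth muscle contractile genes Cnn1 and Myl9 were higher, by 1.34 ± 0.07 and 0.99 ± 0.09. Both fell with pravastatin, to -1.82 and -1.27. The list median was -0.08, and median centring left 3 higher and 7 lower.

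Of 12 Krüppel-like factors, some of which statins induce in other cell types, 5 were higher and 5 lower, near the 33.9% and 28.5% of all genes, with a median of -0.05. Klf4 ranged from -0.21 to 0.36 with SQ1 (median 0.06) and from 0.79 to 1.5 with pravastatin (median 1.22). It was raised on every pravastatin array and centred on 0 with SQ1. The difference was -1.13 ± 0.05, or 2.19-fold higher with pravastatin (adjusted p = 3.05e-09). Klf5 differed by -1.41 ± 0.21, with matched differences from -3.22 to -0.91. Klf2, a well-known statin target of endothelium, differed by -0.14 and was not called. Klf10 and Klf15, the latter a regulator of amino acid use in liver, fell with pravastatin by -2.08 and -1.84, and were higher with SQ1 by 1.53 ± 0.12 and 1.5 ± 0.10.

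All 40 members of the PPARalpha list, the genes through which the liver's fatty acid receptor drives oxidation, were higher with SQ1. The median difference was 1.19 (SD 0.09) over pair medians of 1.08 to 1.32. Since the list was chosen with earlier results of these data known, this count is no independent support for a PPARalpha programme. In SQ1 cells 31 rose and 3 fell, with a median of 0.45. In pravastatin cells 3 rose and 34 fell, with a median of -0.81. The ranges of the drugs did not overlap for 34 of the 40, against 20.7% of all genes. Acot1, a thioesterase that frees long-chain fatty acids, ranged from 2.42 to 2.79 with SQ1 (median 2.69) and from -1.25 to -0.48 with pravastatin (median -0.84). Each drug moved it in its own direction on all 8 arrays. The difference was 3.47 ± 0.08, or 11.1-fold (adjusted p = 5.75e-11). Fabp1, the liver fatty acid-binding protein whose promoter is printed above, ranged from -0.14 to 1.92 with SQ1 (median 0.76) and from -4.59 to -2.36 with pravastatin (median -3.56). Most of the gap came from the fall with pravastatin. The difference was 4.48 ± 0.18, or 22.3-fold (adjusted p = 7.86e-10). The microsomal fatty acid hydroxylases Cyp4a10, Cyp4a14 and Cyp4a31 differed by 2.65, 2.31 and 2.88, and probes for such similar family members may cross-hybridise. Fgf21, a fasting hormone, fell with both, to -0.81 and -2.32. Pdk4, which shuts off pyruvate oxidation, rose with both, by 1.38 and 0.18. Ppara itself differed by 1.12, from 0.26 with SQ1 (not past the threshold) and -0.86 with pravastatin.

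Drug metabolism genes that respond to the receptors CAR and PXR followed. Of 30 listed members 24 were tested; Cyp2b13 and Cyp3a44 did not pass the filter, and Cyp3a41a, Cyp2a5, Ugt1a1 and Gsta1 had no probe under that name. Of the 24, 20 were higher with SQ1 and 2 lower, with a median difference of 1.23 (SD 0.18) and medians of 0.43 with SQ1 and -0.49 with pravastatin. The median difference was 0.97 without the filter on dim probes (26 genes) and 1.02 with the mean of a gene's probes. It was 1.43 with Agilent's processed signals. With median centring 15 were higher and 1 lower. Cyp3a11, the main mouse CYP3A, had the largest difference of all named genes. It ranged from -1.03 to 1.16 with SQ1 (median 0.11) and from -5.40 to -3.39 with pravastatin (median -4.74). The SQ1 arrays lay on both sides of control and the pravastatin arrays far below it. The difference was 4.81 ± 0.20, or 28.0-fold (adjusted p = 8.7e-10). Cyp3a25, Cyp3a59, Cyp3a41b, Cyp3a57 and Cyp3a16 differed by 3.95 to 4.43, but their probes may not tell these near-identical paralogs apart. Cyp2b10, the classic CAR target, rose with SQ1 (1.32) and was at -0.15 with pravastatin, not past the threshold. Por, the reductase that serves all P450s, rose with both, by 0.60 and 0.46. The lower members were Gsta2, a glutathione transferase (-0.48 ± 0.13), and Gadd45b (-0.50 ± 0.05). Gsta2 was not called on replicates 3, 4, 7 and 8 alone, on replicates 5 to 8 alone or with median centring. The receptors' own genes, Nr1i3 for CAR and Nr1i2 for PXR, were higher by 2.13 ± 0.10 and 1.78 ± 0.05.

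Of 23 genes for making fatty acids and triglycerides, 20 were higher with SQ1 and 0 lower, with a median difference of 0.42 (SD 0.20). Scd1, the main stearoyl-CoA desaturase of adult liver, ranged from -1.45 to -0.06 with SQ1 (median -0.53) and from -2.49 to -1.34 with pravastatin (median -2.11). It fell with both drugs, and the ranges overlapped. The difference was 1.36 ± 0.07 (adjusted p = 5.26e-09). Scd2, its paralog, rose with both, by 1.82 and 1.54. Mlxipl, the gene of the glucose sensor ChREBP, was higher by 1.26 ± 0.05, from -0.18 with SQ1 (not past the threshold) and -1.44 with pravastatin. Acss2, a cytosolic acetyl-CoA synthetase, rose with both drugs, by 1.54 and 0.32. With median centring 10 of the 23 were called.

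**Figure D2:**
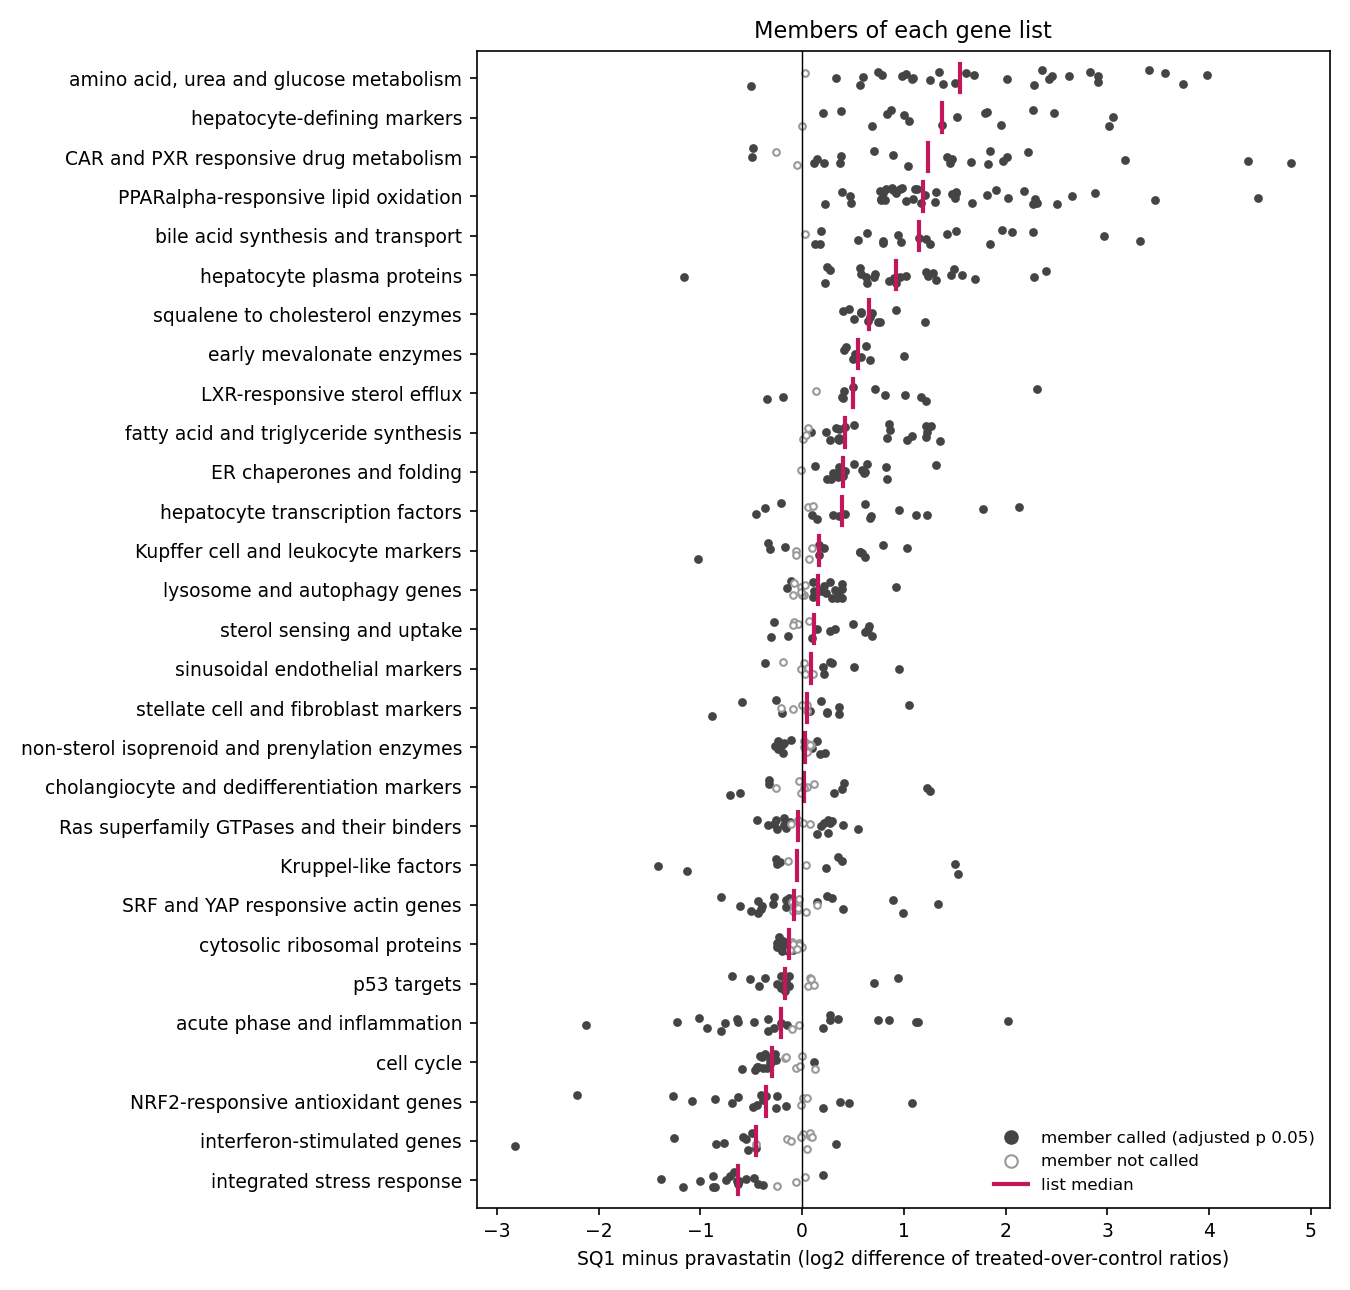
Difference SQ1 minus pravastatin (log2) for each tested member of the 29 gene lists, ordered by list median (vertical bar), with filled points for called members. The medians run from 1.56 for amino acid, urea and glucose metabolism down to -0.63 for the integrated stress response.

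Of the genes that define the hepatocyte, 7 fell and 1 rose with SQ1, and 16 fell with pravastatin. Among 17 hepatocyte-defining markers 16 were higher with SQ1 and 0 lower, with a median difference of 1.38 (SD 0.30), from -0.21 with SQ1 and -1.54 with pravastatin. All 17 were above background in all 16 control channels. In these bulk samples fewer hepatocytes and less RNA of these genes per cell cannot be told apart. Aldh8a1, an enzyme of retinoid and kynurenine metabolism, ranged from -1.14 to 0.63 with SQ1 (median -0.16) and from -3.74 to -2.46 with pravastatin (median -3.24). The groups lay apart by more than 1 log2 unit. The difference was 3.06 ± 0.12 (adjusted p = 6.29e-10). Cyp2f2, a P450 of periportal hepatocytes, differed by 3.01 ± 0.13, while Cyp2e1, a pericentral P450, differed by 0.21, and Aspg, an asparaginase, was not called.

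The largest list difference was in amino acid, urea and glucose metabolism: 28 of 30 genes were higher with SQ1 and 1 lower, with a median of 1.56 (SD 0.22), from -0.25 with SQ1 and -2.11 with pravastatin. Bhmt, which remethylates homocysteine, ranged from -1.17 to 0.79 with SQ1 (median 0.28) and from -4.55 to -3.41 with pravastatin (median -4.0). The 8 SQ1 arrays scattered around control. The difference was 3.98 ± 0.18, or 15.8-fold (adjusted p = 1.75e-09), and the control channels differed by -0.54. Slc2a2, the glucose transporter GLUT2, differed by 3.74 ± 0.18, Arg1, the arginase of the urea cycle, by 3.56 ± 0.15, and Gys2, liver glycogen synthase, by 3.41 ± 0.13. Cps1, the entry enzyme of the urea cycle, differed by 2.91 and Pck1, of gluconeogenesis, by 2.83. The lower member was Cth, cystathionine gamma-lyase (-0.50 ± 0.13). It was not called without the replicate block, with slide as a random block or with median centring.

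Plasma proteins made by the hepatocyte behaved alike, with 24 of 25 higher, a median of 0.92 (SD 0.20), and medians of -0.32 and -1.28. Control channels of this list differed by a median of -0.19 between the array sets, and the treated channels alone gave 0.63. Serpinc1, antithrombin, was higher by 2.39 ± 0.12 and C8a, a complement component, by 2.28 ± 0.10, and both fell with both drugs. Alb, albumin, was at -0.08 with SQ1, not past the threshold, and fell by 1.05 with pravastatin. Igf1 was the exception. It ranged from -0.87 to 0.20 with SQ1 (median -0.38) and from 0.39 to 1.23 with pravastatin (median 0.77). The groups did not overlap, and the difference was -1.16 ± 0.06 (adjusted p = 8.09e-09).

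Bile acid genes gave 20 of 21 higher and 0 lower, with a median of 1.15 (SD 0.08), from -0.13 with SQ1 and -1.31 with pravastatin. Baat, which conjugates bile acids, differed by 3.32 ± 0.10 and Slco1b2, an uptake transporter that also carries statins, by 2.97 ± 0.15. The latter fell with both drugs, by -1.23 and -4.20. Abcb11, the bile salt export pump, differed by 2.27 and Nr1h4, the gene of the bile acid receptor FXR, by 2.06. Slc10a1, the main sodium-dependent uptake carrier, differed by 0.18. Cyp7a1 and Cyp8b1 were on the array and did not pass the filter. Of 18 hepatocyte transcription factors 13 were higher and 3 lower, with a median of 0.39 (SD 0.12). Hnf4a, a central regulator of the hepatocyte, was at -0.08 with SQ1, not past the threshold, fell by 1.3 with pravastatin, and differed by 1.22. The lower factors were Cebpb (-0.45 ± 0.06), Onecut2 (-0.37 ± 0.06) and Esrra (-0.21), and Foxa2 was not called.

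Stress genes ran the other way. In the integrated stress response, in which ATF4 raises amino acid supply when translation is curbed, 16 of 20 genes were lower with SQ1 and 1 higher, with a median of -0.63 (SD 0.20) and pair medians from -0.93 to -0.43. In all, 11 fell and 0 rose with SQ1 (median -0.29), and 14 rose and 2 fell with pravastatin (median 0.32). Ddit3, the gene of the factor CHOP, ranged from -0.79 to -0.14 with SQ1 (median -0.64) and from 0.07 to 1.63 with pravastatin (median 0.72). All SQ1 arrays were below control and all pravastatin arrays above it. The difference was -1.39 ± 0.14, or 2.62-fold higher with pravastatin (adjusted p = 2.5e-06). Trib3, a pseudokinase induced by ATF4 and CHOP, differed by -1.17 ± 0.09 with the same separation, and Chac1, which degrades glutathione, by -1.01. Among members with the printed amino acid response motif, Atf3 differed by -0.87, Asns, asparagine synthetase, by -0.64, and Nupr1 by -0.63. The higher member was Atf5, at 0.21, and its call was lost with median centring, without the replicate block and in 5 other settings, with the slide or scan day as a block among them. Sesn2 was not called, and its difference varied with the slides, at -0.63 for replicates 1, 2, 5 and 6 and 0.12 for the others.

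ER chaperones, the other arm of the response to unfolded proteins, parted from these with pravastatin only. With SQ1 both lists fell, to a median of -0.32 for the chaperones and -0.29 for the stress response. In all, 15 of 19 chaperone genes fell with SQ1 and 19 of 19 with pravastatin. Relative to pravastatin 18 were higher with SQ1 and 0 lower, with a median difference of 0.40 (SD 0.09). Hsp90b1, the chaperone GRP94 with 2 ER stress elements in the promoter above, ranged from -0.67 to -0.11 with SQ1 (median -0.49) and from -1.50 to -1.13 with pravastatin (median -1.25). Both drugs lowered it, and the ranges were apart. The difference was 0.83 ± 0.05 (adjusted p = 1.16e-08). Herpud1, which works in the degradation of ER proteins, differed by 1.31 ± 0.08, and Hspa5, the chaperone BiP, by 0.25. With median centring 8 of the 19 were called.

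NRF2-responsive antioxidant genes were lower with SQ1 for 14 of 21 members and higher for 4, with a median of -0.36 (SD 0.07), from 0.11 with SQ1 and 0.42 with pravastatin. Slc7a11, the cystine importer, which both NRF2 and ATF4 can induce, led them. It ranged from 0.19 to 1.11 with SQ1 (median 0.85) and from 2.56 to 3.28 with pravastatin (median 3.04). Both drugs raised it, with a wide gap between the ranges. The difference was -2.21 ± 0.06, or 4.64-fold higher with pravastatin (adjusted p = 7.66e-11). Gpx2, a glutathione peroxidase, differed by -1.27 ± 0.08, Gclc, the rate-limiting subunit of glutathione synthesis, by -0.85, and Txnrd1, thioredoxin reductase, by -0.69. Gstm1 and Ephx1, which are also abundant hepatocyte enzymes, were higher, by 1.08 ± 0.05 and 0.46 ± 0.04, and Gclm was not called. With median centring 7 were lower and 1 higher.

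**Figure D3:**
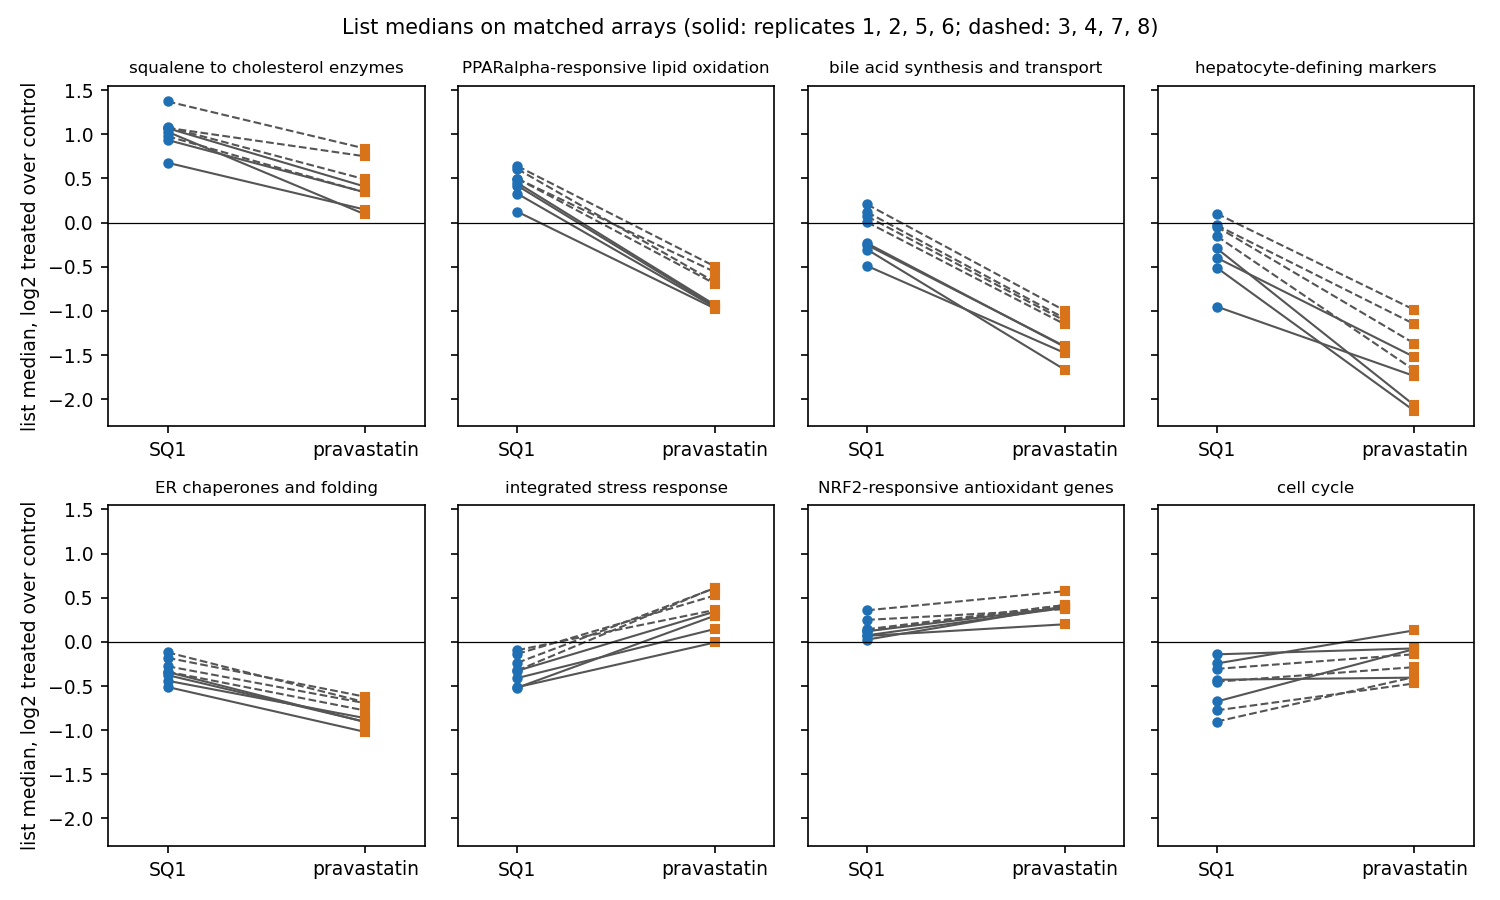
Median of 8 gene lists on each array (log2 treated over control), with SQ1 and pravastatin arrays of 1 replicate number joined by a line. The lines fall from SQ1 to pravastatin in the sterol, PPARalpha, bile acid, hepatocyte and ER chaperone panels, on all 8 pairs. They rise in the stress response, NRF2 and cell cycle panels, also on all 8 pairs. For the cell cycle list the median of the members' matched differences still lay above 0 in 1 pair.

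Proliferation genes were lower with SQ1 for 17 of 24 members and higher for 1, with a median of -0.29 (SD 0.25). The 8 pairs spread widely, from -0.60 to 0.04, and the median was -0.11 over replicates 1 to 4 and -0.43 over replicates 5 to 8. With SQ1 23 members fell and with pravastatin 13. Mcm3, a subunit of the replicative helicase, differed by -0.59 ± 0.05, and Bub1, of the spindle checkpoint, by -0.46 ± 0.11. The count of lower members was 8 without the replicate block, 4 with slide as a random block and 3 with median centring. Of 18 p53 targets 12 were lower and 2 higher, with a median of -0.17 (SD 0.09). Plk2 was lower by -0.69 ± 0.04, and the death receptor Fas was higher by 0.94 ± 0.04, while Cdkn1a, the gene of p21, was not called. Median centring left 2 in each direction.

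Of 25 acute phase and inflammation genes 14 were lower with SQ1 and 9 higher, with a median of -0.20 (SD 0.08). Over all genes 28.5% were lower and 33.9% higher, so the count of higher members was near that share. Median centring left 9 lower and 5 higher. Among the higher was Crp, C-reactive protein, which ranged from -0.46 to 0.28 with SQ1 (median 0.03) and from -2.48 to -1.77 with pravastatin (median -2.01), and Saa4 differed by 1.14 ± 0.04. The arrays of Crp were fully apart, with a difference of 2.02 ± 0.05 (adjusted p = 7.66e-11). The cytokine genes Il6, Cxcl2 and Ccl2 were lower, with Il6 at -0.94, Cxcl2 at -1.02 and Ccl2 at -0.79. Cxcl5, a chemokine for neutrophils, ranged from -2.79 to -1.14 with SQ1 (median -1.56) and from -0.36 to 1.33 with pravastatin (median 0.32). It fell with SQ1, and its pravastatin value of 0.37 ± 0.19 was not past the threshold. The difference was -2.12 ± 0.12 (adjusted p = 1.93e-08). Hamp, hepcidin, which limits iron export, differed by -1.23 ± 0.21.

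Interferon-stimulated genes were lower with SQ1 for 9 of 19 members and higher for 1, with a median of -0.45 (SD 0.27), from 0.21 with SQ1 and 0.73 with pravastatin. The list median was -0.63 over replicates 1 to 4 and -0.04 over replicates 5 to 8. Cxcl10, a chemokine for T cells with the printed response element, ranged from -0.07 to 1.03 with SQ1 (median 0.64) and from 2.67 to 4.61 with pravastatin (median 3.15). No SQ1 array came near the lowest pravastatin array. The difference was -2.82 ± 0.19, or 7.05-fold higher with pravastatin (adjusted p = 6.08e-08). Rsad2, viperin, rose with both drugs and differed by -1.26 ± 0.18. Irf1, a transcription factor of the response, was not called, and Ifit2 was higher by 0.33 ± 0.06.

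Lysosomal and autophagy genes were higher with SQ1 for 15 of 24 members and lower for 2, with a median of 0.15 (SD 0.02). Lipa, the acid lipase that frees cholesterol from esters, was at -0.06 with SQ1, not past the threshold, and fell by 0.98 with pravastatin, a difference of 0.92 ± 0.06. With median centring 1 of the 24 was called. Ribosomal protein genes, given as a reference, were lower with SQ1 for 17 of 24 members, all by less than 1.5-fold, with a median of -0.13 (SD 0.03), and 0 were called with median centring.

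Beyond the lists, the genes with the largest differences in each direction were read from all 15091. The 14 highest ran from 3.32 (Baat) to 4.81 (Cyp3a11), and all 14 fell with pravastatin. With SQ1 Fabp1 and Acot1 rose, Slc2a2, Gys2 and Akr1c6 fell, and the others were not past the threshold. Akr1c6, a hydroxysteroid dehydrogenase, was the most lowered, with pravastatin arrays from -6.64 to -4.29 and SQ1 arrays from -2.99 to -0.44, a difference of 3.85 ± 0.16. The 14 lowest ran from -1.70 to -3.18. Glod5, a glyoxalase-domain protein, led them, with SQ1 arrays from -1.40 to 0.04 (median -1.02) and pravastatin arrays from 1.62 to 3.18 (median 2.17). The drugs moved it in opposite directions. The difference was -3.18 ± 0.06, or 9.03-fold higher with pravastatin (adjusted p = 2.6e-11), and control channels differed by -0.33. Insm1, a transcription factor of neuroendocrine cells, rose with pravastatin and differed by -2.04 ± 0.09. Serpinb2, an inhibitor of plasminogen activators, differed by -2.34 ± 0.07, Cxcl3, another chemokine for neutrophils, by -2.06 ± 0.09, and Areg, a ligand of the EGF receptor, by -1.73 ± 0.14. Slc4a11, Gvin1, Tmprss11f, Irx2 and Cdh17 were also among the 14, at -1.98 to -1.70.

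**Figure D4:**
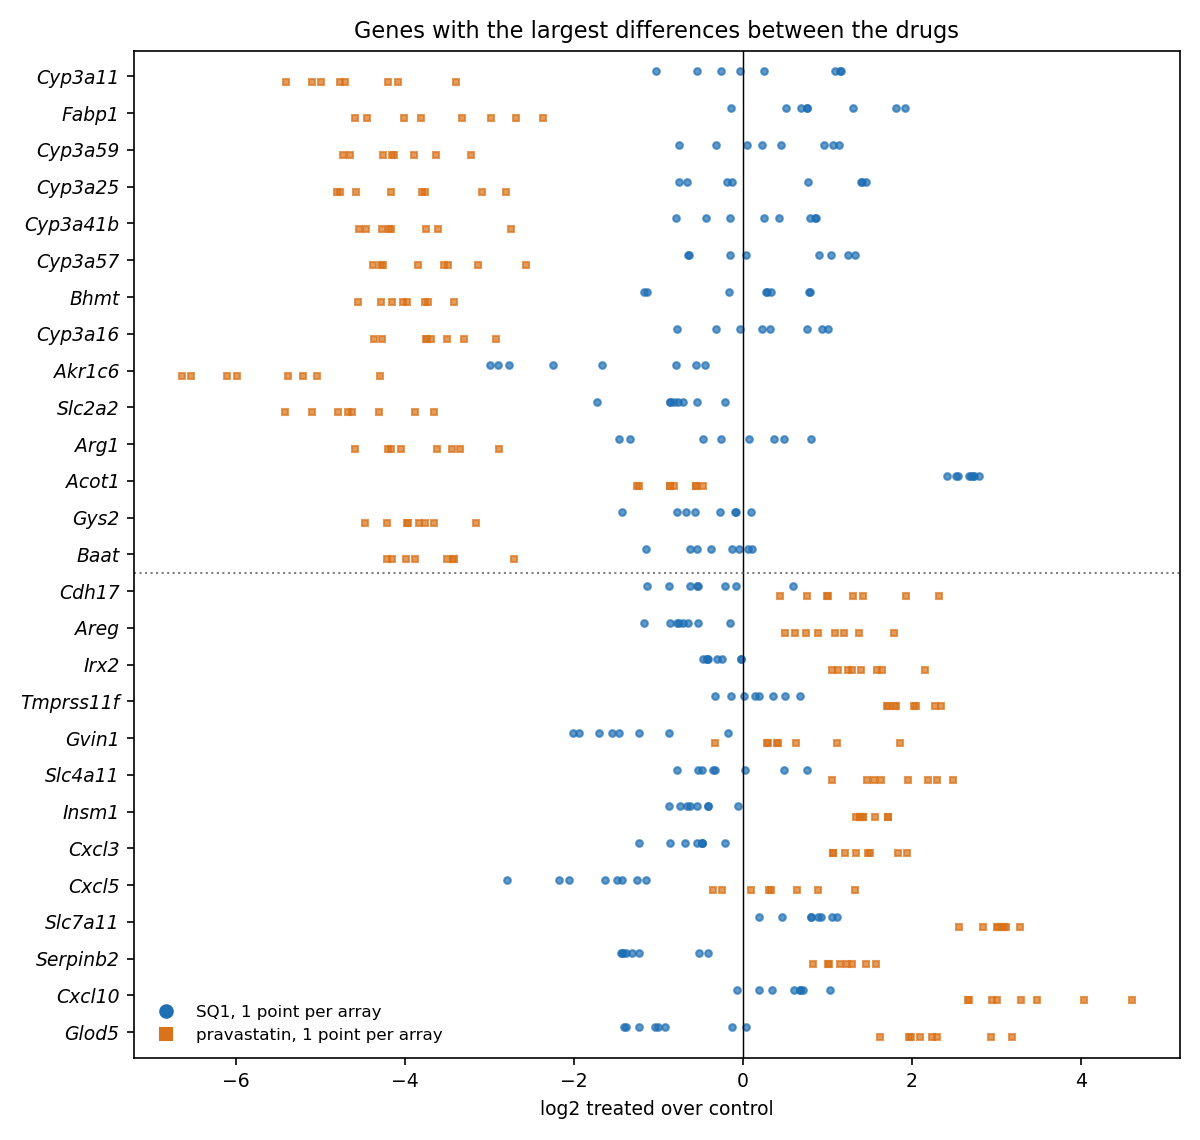
Log2 ratio of treated over control on each array for the 14 genes highest and 13 of the 14 lowest with SQ1 relative to pravastatin (dotted line between them). Acot1 is the one gene of the upper set with all SQ1 arrays above 2, and the ranges of the drugs overlap for Gvin1 and Cdh17 in the lower set.

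Markers of other liver cells were measured beside these lists, and their part in the results was not tested. Over all genes 33.9% were higher with SQ1 and 28.5% lower. For Kupffer cells and leukocytes 9 of 17 tested markers were higher with SQ1 and 4 lower, with summed levels of 24469 to 40157 intensity units in SQ1 channels, 25349 to 40913 in pravastatin channels and 26959 to 46274 in control channels. Vsig4 and C1qa, of resident macrophages, were higher by 1.03 ± 0.10 and 0.79 ± 0.07, while Cd14 was lower by -1.02 ± 0.04 and Adgre1, a macrophage surface receptor, by -0.34 ± 0.07. For stellate cells and fibroblasts 7 of 16 were higher and 4 lower, and the sums were 165487 to 221820 with SQ1, 219044 to 260201 with pravastatin and 154143 to 284017 in controls. Lrat, which stores retinol, was higher by 1.05 ± 0.07, and Timp1 and Vim were lower by -0.89 ± 0.06 and -0.59 ± 0.07. For sinusoidal endothelium 6 of 14 were higher and 1 lower, with sums of 16064 to 19448, 12380 to 18267 and 13887 to 19370, and Lyve1 was higher by 0.95 ± 0.10. For cholangiocytes and dedifferentiated cells 5 of 15 were higher and 4 lower, with sums of 414257 to 598631, 541153 to 657107 and 407304 to 757954. This list includes the keratins Krt8 and Krt18, which hepatocytes also make, so its sums do not measure cholangiocytes. Krt23 and the fetal gene Afp were higher by 1.26 ± 0.14 and 1.23 ± 0.10, and Cldn4 and Spp1 lower by -0.71 ± 0.06 and -0.61 ± 0.07. The defining markers Cd79a, Vwf, Dpt and Gfap were on the array and did not pass the filter. The sums of the hepatocyte-defining markers were 701948 to 1066713 with SQ1, 299915 to 641728 with pravastatin and 932238 to 1776319 in controls. Sums of different lists do not give the share of each cell type.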

How the data were processed

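RNA of 16 treated and control pairs was measured on 16 arrays. The deposited scanner files hold spot and background intensity, which the authors left unnormalized, and, per the file headers, processed intensity and a log10 ratio made by Agilent Feature Extraction 11.0.1.1. The authors' series table is on the log2 scale. It followed the scanner ratio turned to treated over control (correlation 0.999 or more), its array medians ran from -0.068 to 0.140, and its centring is not stated. Marks of spots well above background, saturated or outlying were used as deposited.

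Median spot intensities (the plan had named means, and the files give medians) were corrected by normexp (offset 50) and normalized by loess within arrays in R 4.3.3 with limma 3.58.1; outlier spots were left out. Loess assumes that most genes do not differ, which can shrink broad changes. Of 39429 probes, 27234 were named through RefSeq accessions, for 20659 genes. A probe was tested if well above background in at least 4 of 8 treated channels of a drug or 8 of 16 control channels, and measured on 7 or more arrays per drug. A gene was represented by its brightest probe. This left 15091 genes tested and 5568 not. The array number limits the precision.

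The difference was fitted with limma to 8 matched differences (7 residual degrees of freedom), and each drug against control on all 16 arrays with a dye term (13 degrees). P-values were two-sided and adjusted by Benjamini-Hochberg over all genes. Pairing comes from the replicate numbers of the titles: residuals of same-numbered arrays correlated at 0.22 to 0.72 in all 8 pairs (15005 genes). Only replicates 4, 5 and 6 correlated best with their own number; arrays of other numbers on the same slide pair correlated at 0.17 to 0.48 on average, and for replicate 3 that mean (0.246) exceeded the same-number value (0.220). On simulated data with 15091 genes the fit recovered 38 of 50 changes of 0.3 (log2) and 50 of 50 of 1. The simulation changed few genes, with normal noise, a set replicate correlation and no slide, scan day or normalization effect. Its recovery therefore does not give the power of the comparison itself. Summed marker levels are normalized intensities. Some genes are not reported here by name. Named genes were the target of SQ1, the 14 most extreme each way, and up to 2 called members of each list in each direction; other members named were chosen after their values were seen. Members and lists were chosen with earlier results of these data known. Normalization, background correction, signals, filter, probes, blocks, slides, dye orientation and left-out replicates were varied.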

Additional observations from a re-analysis of the deposited data

Results flagged for a closer look

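Among the 143 sets of 8 matched differences examined (114 named genes and 29 list medians), 6 had 1 pair far from the others by Dixon's test, where chance alone marks about 1 set in 20. Klf5 was at -3.22 in replicate 5, with the other 7 pairs from -1.45 to -0.91. Onecut2 was at 0.088 in replicate 4, with the others from -0.53 to -0.33. Crp was at 1.63 in replicate 1, with the others from 1.95 to 2.17. Cldn4 was at -1.11 in replicate 3, with the others from -0.76 to -0.51. Rhod was at 0.63 in replicate 5, with the others from 0.30 to 0.45. Nr1i3 was at 1.38 in replicate 8, with the others from 1.99 to 2.54. The far pairs fell in replicates 1, 3, 4, 5 and 8, with 2 of the 6 in replicate 5.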

How the results depend on the processing

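Of 164 counts, 696 list medians and 2736 values of named genes recomputed under the alternatives, 14 counts moved by over 1.5 times, 42 list medians moved by more than their spread over pairs, 82 named values kept their direction and lost the call, and no called value reversed. The medians of the non-sterol isoprenoid, GTPase and cholangiocyte lists, all near 0, changed sign under some alternatives. With median centring in place of loess, 2865 genes were called (1812 higher, 1053 lower), and all 2865 were among the 9416, in the same direction. The median standard error was then 0.134 against 0.042. Against control, median centring gave 2071 genes for SQ1 (1473 rose, 598 fell) and, for pravastatin, 4376 risen and 2801 fallen against 4651 and 5397 as reported. With Agilent's processed signals 6090 rose and 4630 fell with pravastatin, so the balance turned under both. The share of called genes that were higher was 54.4% as reported, 63.2% with median centring and 44.7% with Agilent's processed signals or the series table. For SQ1 against control it was 48.7% and 71.1%, with a median over genes of 0.07 under median centring. With slide as a random block 5730 genes were called (3307 higher, 2423 lower), and for SQ1 against control 2543 (1223 rose, 1320 fell), the latter an alternative chosen after seeing the data. With scan day as a random block 7177 were called. A required change of 1.5-fold left 1631. Without the replicate block (no pairing by number) 8002 genes were called. The blocked fit is the one reported. Leaving out 1 replicate at a time gave 8907 to 9132 called genes (4881 to 4998 higher, 4012 to 4195 lower), 3998 to 4847 for SQ1 against control and 9562 to 10077 for pravastatin. E2f1 lost its call without replicate 2, 6 or 7, and Gaa without 5 or 6. The drugs lay on separate slides, the doses differed, and dim probes have little signal over background, which limits low values such as the deepest falls with pravastatin. The cause of these changes was not tested.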
